A study of Macaca fascicularis with 16 samples.

Results

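The descending thoracic aorta of young cynomolgus monkeys (Macaca fascicularis) was compared with the ascending, suprarenal and infrarenal aorta by RNA sequencing. Its libraries were the 4 that the labels name as descending, out of 16 libraries in all, with 4 from each region. The labels describe the animals as normal and the treatment as baseline in every group, and give no age in years, sex or animal for a library. Where nothing ties libraries to separate animals, the p-values measure only the spread between these libraries. The question was which genes are at their highest or lowest in the descending segment, and which of its neighbours each difference came from, so the descending region was set against the mean of the 3 other region means with all 16 libraries in the fit.

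The aorta is a conduit artery whose wall is built of smooth muscle layers alternating with elastic lamellae. In mice, the smooth muscle of the ascending segment descends from cardiac neural crest and second heart field, and that of the descending thoracic segment from paraxial mesoderm of the somites. HOX genes, transcription factors that encode position along the body axis, are expressed in nested domains whose limits follow their order in each cluster. The fat around the thoracic aorta of rodents has features of brown fat.

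The descending libraries held 15953945, 16451251, 16437590 and 17750133 counts, within the range of 14402824 to 21407514 over all 16 libraries. Contractile smooth muscle genes were abundant in the descending libraries, as the labelled tissue would have: the smooth muscle myosin heavy chain MYH11 averaged 10852 ± 887 CPM (SD, n = 4) and smooth muscle actin ACTA2 5438 ± 410. CPM, read counts scaled to a common library size with TMM factors, are not divided by gene length, so levels are compared between regions and not between genes. In 3 libraries of the other regions a set of genes stood apart. Infrarenal library 1 had a TMM factor of 0.736 against 0.977 to 1.08 in the other libraries and a ribosomal protein score (mean centred log2 CPM of 81 genes) of 1.38, against -0.352 to 0.29 in the others. Ascending library 4 had a mesothelial marker score of 3.48, against -0.156 to 0.0544 in the other ascending libraries. Suprarenal library 3 had a lymphocyte marker score of 2.34, against -0.601 to -0.259 in the other suprarenal libraries. These 3 were chosen with earlier results of these data known, and no descending library was among them. Descending library 1 had a pericyte marker score of 0.517, against -0.0979 to -0.0137 in the other descending libraries, and was kept. Each of the 3 enters the mean that the descending aorta is set against. The counts of calls, the called genes and the list medians that moved are given with and without them.

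In the descending aorta 2 genes passed the threshold against the mean of the other regions, an edgeR quasi-likelihood test with a Benjamini-Hochberg adjusted p under 0.05. They were KCNJ15, an inwardly rectifying potassium channel, and SNX31, a sorting nexin of endosomal membrane traffic, and both were higher. They made up 0.0126% of the 15926 genes tested. No gene was called lower. At an unadjusted p under 0.05 there were 1013 genes, 575 higher and 438 lower in the descending aorta, and DESeq2 called 87 (59 higher, 28 lower) and limma voom 8, all higher, which included KCNJ15 but not SNX31 (adjusted p = 0.187). The same test of each other region against its own remainder called 221 genes (1.39%) for the ascending, 4 (0.0251%) for the suprarenal and 474 (2.98%) for the infrarenal aorta. These contrasts share all 16 libraries, so the counts are given side by side without a test between them.

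**Figure D1:**
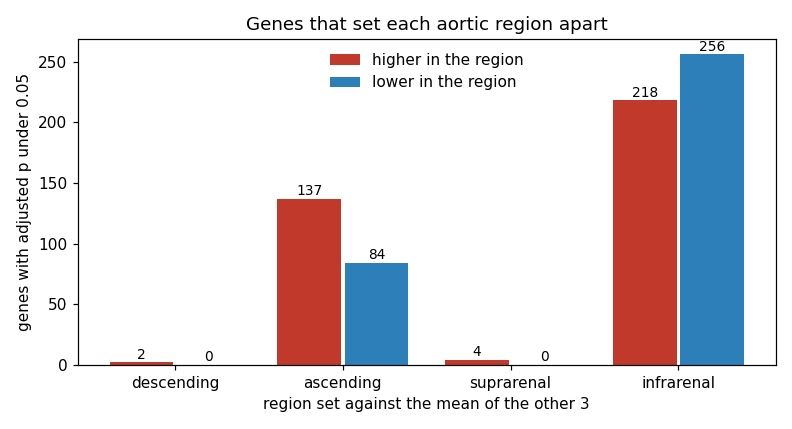
Genes with an adjusted p under 0.05 when each region (x axis) is set against the mean of the other 3, split into genes higher (red) and lower (blue) in that region. The descending aorta has 2 higher and 0 lower, against 137 and 84 in the ascending, 4 and 0 in the suprarenal and 218 and 256 in the infrarenal aorta.

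Without infrarenal library 1, ascending library 4 and suprarenal library 3, the descending aorta had 12 genes past the threshold, 11 higher and 1 lower (0.0753% of 15933 tested). KCNJ15 and SNX31 were among them, beside ADGRL3, EYA2, MTUS2, BMP3, CAMK2B, EPB41L4B, HOXA4, LRP1B and SHISA9, and the gene that was lower was the protein tyrosine phosphatase PTP4A1. The ascending aorta then had 1048 genes (6.58%), the suprarenal 5 (0.0314%) and the infrarenal 1607 (10.1%).

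No gene differed from each of the 3 other regions in the same direction. The count of such peaks and of such dips was 0 with edgeR, with DESeq2 and with limma voom, because no gene passed between the descending and the suprarenal aorta. The order of the region means gave another view. The descending mean was the highest of the 4 for 4880 genes (30.6%), the second for 3353 (21.1%), the third for 3223 (20.2%) and the lowest for 4470 (28.1%). For 17 genes (0.107%) the 4 descending libraries lay above all other 12, and for 18 (0.113%) they lay below. The counts of genes without overlap were 71 above (0.446%) and 67 below (0.421%) for the ascending, 0 and 1 (0.00628%) for the suprarenal and 75 (0.471%) and 144 (0.904%) for the infrarenal libraries.

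For the 556 genes (3.49%) that passed between the infrarenal and the ascending aorta, the place of the descending mean between those ends was measured on the log2 scale, with the ascending mean at 0 and the infrarenal mean at 1. The descending mean lay between the ends for 446 genes (80.2%) and nearer the ascending end for 418 (75.2%), at a median position of 0.28 with quartiles of 0.08 and 0.49. The suprarenal mean lay between them for 93.5%, nearer the ascending end for 55%, at a median of 0.48. Without the 3 libraries 2099 genes passed between the ends, and the median position was 0.44 for the descending and 0.45 for the suprarenal aorta. The set of genes changed along with the libraries, so these medians and those above are not over the same genes. The genes were chosen for a difference between the ends in these same libraries, which by itself favours other means falling between them. These positions are descriptions of gene means and were not tested.

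KCNJ15 was at 5.44, 17.6, 15.4 and 21.1 CPM in the descending libraries, at 2.13, 4.81, 7.57 and 0.422 CPM in the ascending, at 3.34, 1.53, 0.635 and 2.66 CPM in the suprarenal and at 0.154, 0, 0 and 0.113 CPM in the infrarenal libraries. Descending libraries 2 to 4 lay above every other library, and library 1 lay below ascending library 3. The log2 difference from the mean of the other regions was 4.18 (SE 0.56, adjusted p = 0.0245). By region it was 1.99 against the ascending (adjusted p = 0.523), 2.86 against the suprarenal (adjusted p = 1.00) and 7.69 against the infrarenal aorta (adjusted p = 0.00155), where the 4 libraries held 4 counts in all. KCNJ15 had an adjusted p of 0.00465 without the 3 libraries that stood apart.

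SNX31 was at 17.0, 5.54, 12.6 and 2.83 CPM in the descending libraries, at 0.0627, 0, 0.0605 and 0.181 CPM in the ascending, at 28.6, 5.12, 3.55 and 11.8 CPM in the suprarenal and at 0.309, 0, 0.393 and 0.113 CPM in the infrarenal libraries. The descending and suprarenal libraries overlapped, and both lay above all ascending and infrarenal libraries, so this gene did not peak in the descending segment alone. The log2 difference was 4.0 against the mean of the other regions (SE 0.59, adjusted p = 0.0393), 6.82 against the ascending (adjusted p = 0.0100), -0.37 against the suprarenal (adjusted p = 1.00) and 5.54 against the infrarenal aorta (adjusted p = 0.0050). The ascending libraries held 5 SNX31 counts and the infrarenal 12, so the size of these differences rests on few reads. Its adjusted p was 0.0396 without the 3 libraries that stood apart.

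Both calls were close to the threshold. When single libraries were left out, in 16 fits, the adjusted p of KCNJ15 ran from 0.00692 to 0.115 and was under 0.05 in 6 fits, and that of SNX31 ran from 0.0114 to 0.224 and was under 0.05 in 5. KCNJ15 did not pass without descending 2, 3 or 4, ascending 1 or 2, suprarenal 2 or 4, or infrarenal 1, 2 or 4. SNX31 did not pass without descending 1, 2 or 3, ascending 1, 2 or 3, suprarenal 2 or 4, or infrarenal 1, 2 or 4.

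The genes next in order of p did not pass with edgeR, and they are named here because of their small p, a choice made after their values were seen. DESeq2 called BMP3, PROM1, SEMA3C, AK4, ZNF556, DIRAS2, SHISA9, RBFOX1, TMEM151B and KCNA5, and limma voom called PROM1, SHISA9 and ZNF556. BMP3, a secreted member of the BMP family that opposes other BMPs, was at 24.7, 37.8, 55.1 and 15.7 CPM in the descending libraries, at 9.77, 13.6, 25.8 and 2.35 CPM in the ascending, at 14.7, 5.12, 7.80 and 4.49 CPM in the suprarenal and at 0.771, 1.38, 2.56 and 1.41 CPM in the infrarenal libraries. All 4 descending libraries lay above all suprarenal and infrarenal ones and overlapped the ascending. Its log2 difference was 2.62 (SE 0.43, adjusted p = 0.0547), and it passed without the 3 libraries (2.42, adjusted p = 0.0396). PROM1, a membrane glycoprotein of cell protrusions, was at 59.4, 215, 124 and 171 CPM in the descending libraries, 41.4, 93.9, 70.0 and 22.3 CPM in the ascending, 22.8, 6.22, 15.7 and 51.7 CPM in the suprarenal and 1.77, 1.5, 9.63 and 0.905 CPM in the infrarenal libraries. The descending libraries were again the highest apart from library 1, with a log2 difference of 3.08 (SE 0.51, adjusted p = 0.0547, and 0.103 without the 3 libraries).

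SEMA3C, a secreted semaphorin that guides neural crest cells into the outflow tract in mice, was at 260, 248, 354 and 254 CPM in the descending libraries, at 221, 222, 235 and 87.6 CPM in the ascending, at 147, 66.0, 110 and 161 CPM in the suprarenal and at 54.8, 43.9, 58.8 and 88.0 CPM in the infrarenal libraries. Every descending library was above every other, and the region means were lower with each step from the descending through the ascending and suprarenal to the infrarenal aorta. SEMA3C had a log2 difference of 1.31 (SE 0.24, adjusted p = 0.105, and 0.0851 without the 3 libraries). AK4, an adenylate kinase of the mitochondrial matrix, was at 63.2, 78.0, 64.6 and 67.0 CPM in the descending libraries, at 26.3, 42.0, 51.7 and 33.0 CPM in the ascending, at 35, 37.1, 32.7 and 43.1 CPM in the suprarenal and at 26.3, 41.0, 47.4 and 39.7 CPM in the infrarenal libraries. AK4 had no overlap and nearly equal means in the 3 other regions. Its log2 differences were 0.83 against the ascending, 0.88 against the suprarenal and 0.82 against the infrarenal aorta, and 0.85 against their mean (SE 0.16, adjusted p = 0.109, and 0.102 without the 3 libraries).

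ZNF556, a zinc finger gene, had its descending libraries at 0.794, 0.843, 2.12 and 1.83 CPM, against 0 to 0.247 CPM in the ascending, 0.0619 to 0.354 in the suprarenal and 0.0771 to 0.393 in the infrarenal libraries. The groups did not overlap, but the descending libraries held 95 counts in all and the other regions 6, 16 and 13. The log2 difference was 3.03 (SE 0.50, adjusted p = 0.0547, and 0.0508 without the 3 libraries). DIRAS2, a small GTPase of the Ras family, averaged 7.86 ± 6.39 CPM in the descending and 2.76 ± 2.09, 2.52 ± 1.37 and 0.151 ± 0.102 in the ascending, suprarenal and infrarenal libraries (SD, n = 4 each), a log2 difference of 2.91 (SE 0.50, adjusted p = 0.0547, and 0.0851 without the 3 libraries). SHISA9, an auxiliary subunit of AMPA receptors in brain, was at 19.3, 16.7, 23.5 and 13.4 CPM in the descending libraries, 3.70, 1.67, 8.11 and 1.03 CPM in the ascending, 19.2, 6.12, 3.68 and 9.80 CPM in the suprarenal and 1.23, 0.301, 0.983 and 0.113 CPM in the infrarenal libraries. Suprarenal library 1 reached the descending range and the rest lay below it. SHISA9 had a log2 difference of 2.69 (SE 0.48, adjusted p = 0.0839, and 0.0435 without the 3 libraries).

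A few genes of small p were near their ascending level in the descending aorta and far lower in the infrarenal. RBFOX1, a regulator of splicing, averaged 29.6 ± 13 CPM in the descending libraries and 48.9 ± 23.4, 8.27 ± 7.35 and 0.0916 ± 0.106 in the ascending, suprarenal and infrarenal libraries (SD, n = 4 each). Its log2 difference was 3.09 from the mean of the others (SE 0.52, adjusted p = 0.0547, and 0.102 without the 3 libraries), -0.73 from the ascending and 8.17 from the infrarenal aorta (adjusted p = 0.00106). TMEM151B averaged 10.4 ± 4.58 CPM in the descending and 7.37 ± 0.714, 6.48 ± 3.59 and 0.600 ± 0.323 in the ascending, suprarenal and infrarenal libraries, with a log2 difference of 1.75 (SE 0.34, adjusted p = 0.109, and 0.142 without the 3 libraries). For both genes the difference from the mean was drawn mainly by the low infrarenal level. KCNJ15, BMP3, PROM1, DIRAS2 and SHISA9 were also lowest in the infrarenal aorta, which adds to their differences from the mean. For KCNJ15 the infrarenal difference was the largest of the pairs and the only one that passed, as given above.

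In the other direction the gene of smallest p was KCNA5, a voltage-gated potassium channel of arterial smooth muscle. It was at 12.7, 6.62, 19.7 and 15.6 CPM in the descending libraries, at 30.9, 18.4, 39.2 and 23.8 CPM in the ascending, at 26.2, 36.1, 26 and 18.1 CPM in the suprarenal and at 89.3, 57.2, 64.1 and 115 CPM in the infrarenal libraries. Descending library 3 reached the lowest ascending and suprarenal values, and the other descending libraries lay below them all. KCNA5 had a log2 difference of -1.52 (SE 0.29, adjusted p = 0.109, and 0.123 without the 3 libraries), with -1.04 against the ascending, -0.96 against the suprarenal and -2.57 against the infrarenal aorta (adjusted p = 0.00155).

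**Figure D2:**
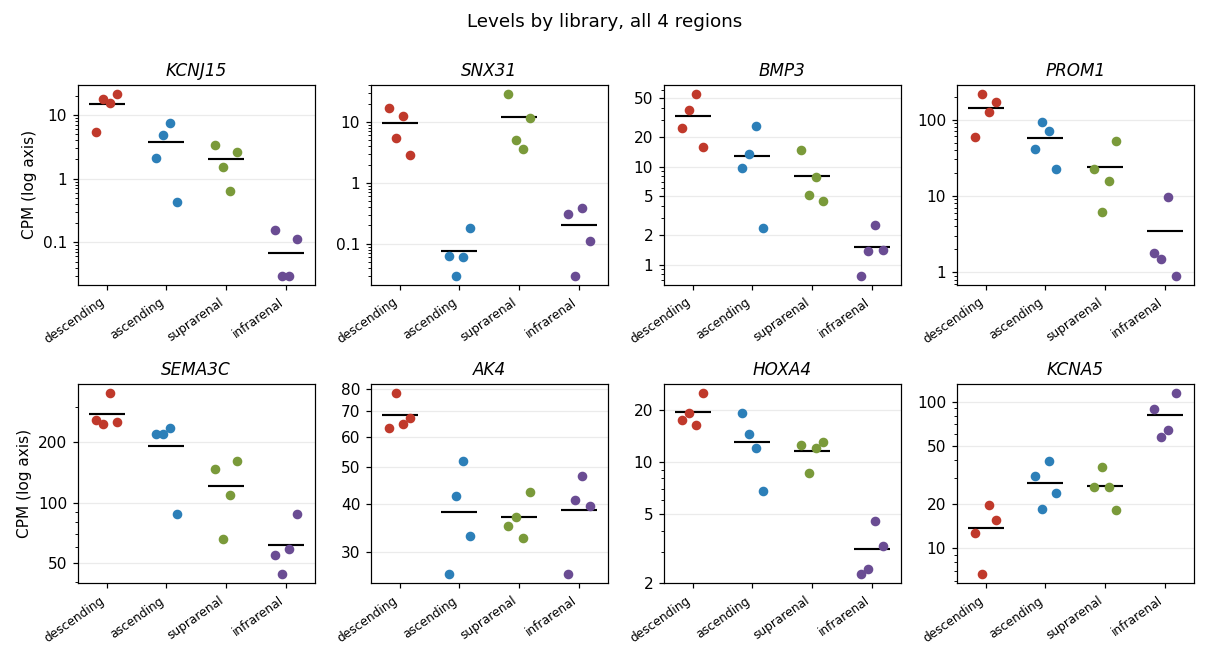
CPM on a log axis in each library (points) with the region mean (bar) for 8 genes. Values of 0 are drawn at 0.03. KCNJ15, BMP3, PROM1, SEMA3C and HOXA4 step down from the descending to the infrarenal aorta, SNX31 is high in the descending and suprarenal libraries, AK4 is high in the descending ones with no overlap, and KCNA5 is lowest there.

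Of the other genes without overlap, UAP1, which makes an activated sugar for glycoprotein and proteoglycan synthesis, was at 76.5 to 83.6 CPM in the descending libraries, against 57.1 to 68.8 in the ascending, 56.4 to 76.1 in the suprarenal and 38.3 to 52.8 in the infrarenal libraries, a log2 difference of 0.50 (SE 0.11, adjusted p = 0.222). IL13RA1, a receptor chain for interleukins, was at 261 to 328 CPM in the descending libraries, against 158 to 245, 181 to 235 and 122 to 211 in the ascending, suprarenal and infrarenal libraries, a log2 difference of 0.58 (SE 0.14, adjusted p = 0.263). Among the 18 genes with all descending libraries below the rest was MYL9, the regulatory light chain of smooth muscle myosin, at 6195 to 6686 CPM in the descending libraries, against 7758 to 8916, 6731 to 9828 and 7393 to 38491 in the ascending, suprarenal and infrarenal libraries. The highest of these was infrarenal library 1, and the log2 difference of MYL9 was -0.68 (SE 0.35, adjusted p = 0.733). None of these 3 genes passed with edgeR, while DESeq2 called UAP1 (adjusted p = 0.0121) and IL13RA1 (adjusted p = 0.0257).

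EYA2, a transcriptional coactivator with phosphatase activity, and PTP4A1 were picked out by the fit without the 3 libraries. EYA2 averaged 12.2 ± 2.7 CPM in the descending and 8.34 ± 7.54, 5.62 ± 4.47 and 3.64 ± 1.20 in the ascending, suprarenal and infrarenal libraries (SD, n = 4 each). Its log2 difference from the mean of the others was 1.13 (SE 0.43, adjusted p = 0.733) with all libraries and 1.57 (adjusted p = 0.0284) without the 3. PTP4A1 was at 43.3, 45.5, 49.7 and 50.3 CPM in the descending libraries, at 46.7, 51.6, 48.2 and 47.3 CPM in the ascending, at 58.2, 59.5, 33.6 and 58.0 CPM in the suprarenal and at 122, 103, 89.3 and 87.4 CPM in the infrarenal libraries. Its descending range overlapped the ascending one, with descending libraries 1 and 2 below every ascending library, and suprarenal library 3 was the lowest of all. The log2 difference was -0.43 (SE 0.14, adjusted p = 0.630) with all libraries and -0.45 (adjusted p = 0.0479) without the 3.

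Between the descending and the ascending aorta 18 genes passed, 14 higher (0.0879%) and 4 lower (0.0251%) in the descending segment (0.113% of those tested). HOX genes led the higher ones. HOXA7 was at 36.4, 23.0, 20.6 and 5.65 CPM in the descending libraries and at 0.689, 0.123, 0.605 and 0.483 CPM in the ascending. The groups were far apart although descending library 4 was the lowest of its own. The log2 difference was 5.47 (adjusted p = 0.00198). HOXC6 averaged 19.2 ± 9.76 CPM in the descending and 0.682 ± 0.736 in the ascending libraries (SD, n = 4 each, log2 difference 4.81, adjusted p = 0.00315), and HOXB7 9.43 ± 2.50 and 0.904 ± 0.343 (3.37, adjusted p = 0.00212). HOXA9 and HOXA10 were lower in level but still apart, at 2.16 to 5.06 CPM in the descending against 0.0605 to 0.362 in the ascending libraries for HOXA9 (4.60, adjusted p = 0.0123) and at 1.26 to 2.55 against 0.0604 to 0.185 for HOXA10 (4.23, adjusted p = 0.0100).

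The HOX genes did not share a profile along the rest of the vessel. HOXC6 and HOXA7 averaged 19.2 and 21.4 CPM in the descending aorta, against 28.8 and 40.1 in the suprarenal and 29.2 and 45.1 in the infrarenal. HOXA9 and HOXA10 averaged 3.51 and 1.86 CPM in the descending aorta, against 11 and 6.22 in the suprarenal and 44.4 and 37.4 in the infrarenal. HOXD9 averaged 0.967 CPM in the descending, 0.958 in the ascending, 4.78 in the suprarenal and 31.5 in the infrarenal aorta, so its descending level was that of the ascending segment. The descending range overlapped both distal ranges for HOXC6, at 5.76 to 29.0 CPM against 22.1 to 34.5 in the suprarenal and 18 to 37.4 in the infrarenal libraries, and for HOXA7, at 5.65 to 36.4 CPM against 33.3 to 48.0 and 26.7 to 92.0. HOXB7, at 5.76 to 11.3 CPM in the descending libraries, overlapped the suprarenal range of 10.2 to 18.7 and lay below all infrarenal libraries, at 12.3 to 38.6. HOXA9, HOXA10 and HOXD9 also lay below all infrarenal libraries.

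HOXC5 and HOXA4 were highest in the descending aorta by their means. HOXC5 was at 15.4, 10.4, 14.6 and 8.04 CPM in the descending libraries, at 5.01, 2.22, 2.91 and 2.23 CPM in the ascending, at 13.3, 7.27, 9.58 and 9.80 CPM in the suprarenal and at 8.10, 5.18, 7.27 and 5.09 CPM in the infrarenal libraries. It rose against the ascending aorta (1.97, adjusted p = 0.0167) and overlapped both other regions, with a log2 difference of 1.06 from the mean of all (SE 0.24, adjusted p = 0.222). HOXA4 was at 17.4, 19.1, 16.3 and 25 CPM in the descending libraries, at 19.1, 14.4, 11.9 and 6.76 CPM in the ascending, at 12.4, 8.61, 11.9 and 13 CPM in the suprarenal and at 2.24, 2.41, 4.52 and 3.28 CPM in the infrarenal libraries. The descending libraries lay above all suprarenal and infrarenal ones, and ascending library 1 fell inside their range. Its log2 difference was 1.32 from the mean (SE 0.23, adjusted p = 0.0547, and 0.0396 without the 3 libraries) and 2.64 from the infrarenal aorta (adjusted p = 0.00106). Against the mean, HOXA4 was called by DESeq2 (adjusted p = 0.000153) and limma voom (adjusted p = 0.0405).

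Over the whole list of posterior HOX genes, 15 were tested, of which 7 were higher and 8 lower than the mean of the other regions (median -0.06, and 0.39 without the 3 libraries). Against the ascending aorta 5 of them were called higher and none lower in the descending segment, with a median log2 difference of 4.23. The median was 3.22 with genes at 3 counts or fewer in either region set at a bound, for which such a region was raised to 3 counts. Against the suprarenal aorta none was called in either direction (median -1.16). Against the infrarenal aorta 6 were called lower, namely HOXD9, HOXD10, HOXA11, HOXA10, HOXC9 and HOXA9, and none higher (median -1.80). Of 13 anterior HOX genes 8 were higher and 5 lower than that mean (median 0.14, and 0.28 without the 3 libraries), HOXC5 alone was called against the ascending aorta (higher), and HOXA4 (higher) and HOXC4 (lower, -2.13, adjusted p = 0.00475) against the infrarenal.

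**Figure D3:**
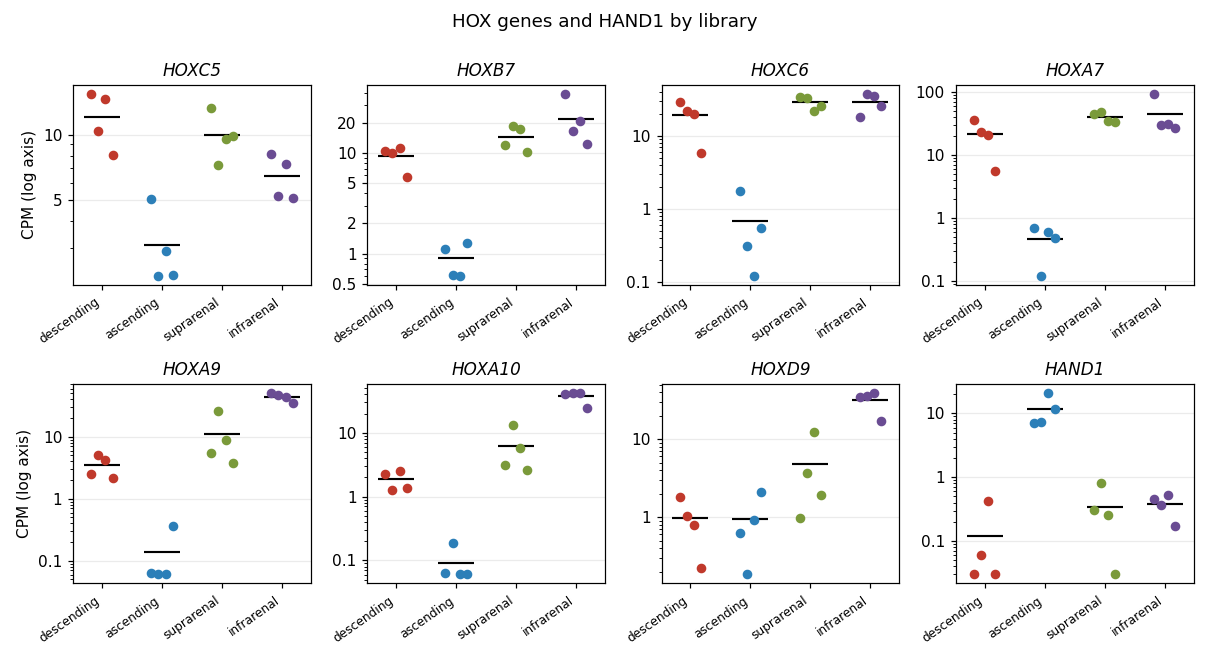
CPM on a log axis in each library (points) with the region mean (bar) for 7 HOX genes and HAND1. Values of 0 are drawn at 0.03. HOXB7, HOXC6 and HOXA7 are above all ascending libraries in the descending, suprarenal and infrarenal ones, HOXA9 and HOXA10 step up from the ascending to the infrarenal aorta, HOXD9 is low in descending and ascending libraries alike, and HAND1 is high in the ascending ones.

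Of the other genes that rose in the descending over the ascending aorta, ADGRL3, an adhesion receptor of the latrophilin family, was at 30.4, 42.2, 34.4 and 37.5 CPM in the descending and at 2.13, 1.05, 2.24 and 6.64 CPM in the ascending libraries, with no overlap (3.58, adjusted p = 0.00251). Its suprarenal and infrarenal means were 32.5 and 24.9 CPM, near the descending level of 36.1. SERTM1 averaged 29.2 ± 16.3 CPM in the descending and 2.47 ± 1.00 in the ascending libraries (3.56, adjusted p = 0.0136). TENM3, a teneurin that binds latrophilins, averaged 18.8 ± 4.77 and 5.12 ± 1.5 CPM in the descending and ascending libraries (1.87, adjusted p = 0.0100). SLIT3, a secreted ligand of ROBO receptors, averaged 232 ± 35.4 and 93.9 ± 14.4 CPM (1.30, adjusted p = 0.0308), and ITGBL1, an integrin beta-like protein, 168 ± 38.6 and 48.9 ± 9.14 CPM (1.78, adjusted p = 0.0171).

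The 4 genes that fell were at low levels in the descending segment. HAND1, a transcription factor of heart development, was at 0, 0.0602, 0.425 and 0 CPM in the descending libraries, 8 counts in all, and at 7.14, 7.41, 21 and 11.6 CPM in the ascending, where it held 773 counts (-6.54, adjusted p = 0.0100). MAB21L2, a gene of embryonic patterning, averaged 0.478 ± 0.114 CPM in the descending and 5.17 ± 2.50 in the ascending libraries (-3.42, adjusted p = 0.0167). PIANP averaged 1.71 ± 1.28 and 21.7 ± 5.97 CPM (-3.66, adjusted p = 0.0167). ART4, the carrier of the Dombrock blood group antigens, averaged 1.68 ± 0.810 and 9.60 ± 2.97 CPM (-2.51, adjusted p = 0.0100). The suprarenal and infrarenal means of these 4 genes were low as well, at 0.297 to 2.08 CPM.

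Without the 3 libraries that stood apart, 141 genes passed between the descending and the ascending aorta, 102 higher and 39 lower. HOXA7, HOXC6, HOXB7 and ADGRL3 passed in all 16 fits that left out a library. Leaving out ascending library 1, 2 or 3 left 10, 8 or 7 genes, and leaving out infrarenal library 1 gave 34. HOXA9, TENM3, SERTM1 and SNX31 lost their calls without ascending library 1, 2 or 3, HOXA10 without ascending 1 or 3, HAND1 without descending 2 or ascending 3, and ART4 without descending 1 or ascending 2. HOXC5 lost its call without descending 1 or 3 or ascending 2, 3 or 4, PIANP without descending 1 or 2 or ascending 2 or 3, MAB21L2 without any descending library or ascending 1, 2 or 3, ITGBL1 without descending 1 or 2 or any ascending library, and SLIT3 without any library of the 2 regions. With limma voom 9 genes passed, and HOXA7 (adjusted p = 0.129), HOXC6, HOXA9, HOXA10, HOXB7, SNX31, TENM3, SERTM1 and MAB21L2 were not among them.

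Between the descending and the suprarenal aorta, its distal neighbour, 0 genes (0%) passed with edgeR, DESeq2 or limma voom, and 264 had an unadjusted p under 0.05. The same count was 0 without the 3 libraries. Over all genes the median absolute log2 difference was 0.16 from the suprarenal, 0.24 from the ascending and 0.30 from the infrarenal aorta. A p that misses the threshold does not show that the neighbours have the same levels, and the suprarenal libraries were spread widely for many genes, as for P2RX1 at 9.46, 111, 20.3 and 1.48 CPM.

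Against the infrarenal aorta 263 genes passed, 162 higher (1.02%) and 101 lower (0.634%) in the descending segment (1.65% in all), and without the 3 libraries 653 passed (401 higher, 252 lower). Among the higher genes without overlap and with a mean log2 CPM of 1 or more over all libraries, a limit that leaves out KCNJ15 and SNX31, the largest differences were those of RBFOX1, CTNND2 and RSPO2. CTNND2, a delta-catenin of cell junctions, averaged 12 CPM in the descending and 0.114 in the infrarenal aorta (6.64, adjusted p = 0.00754). RSPO2, an R-spondin that enhances WNT signalling, averaged 17.3 and 0.393 CPM (5.39, adjusted p = 0.00427). Above the same limit, which also leaves out HOXD10 with 0 descending and 624 infrarenal counts, the largest lower ones were P2RX1, an ATP-gated channel of smooth muscle, at 4.53 CPM in the descending and 190 in the infrarenal aorta (-5.39, adjusted p = 0.0113), HOXD9 (-5.02, adjusted p = 0.00517) and DPYSL5, at 0.673 and 19.2 CPM (-4.81, adjusted p = 0.0468). DPYSL5 lost its call in 10 of 16 fits that left out a library, and P2RX1 without descending library 3 or 4.

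ELN, the elastin gene, and FBN1, which encodes the microfibril protein fibrillin, were examined with NOTCH3, since the title of the study names NOTCH3 and elastic fibres. ELN was at 349, 635, 423 and 212 CPM in the descending libraries, at 225, 521, 406 and 118 CPM in the ascending, at 297, 388, 168 and 189 CPM in the suprarenal and at 33.4, 246, 221 and 135 CPM in the infrarenal libraries. The descending mean was the highest and every group overlapped it. The difference from the other 12 libraries was 0.88 on the log2 scale. An exact two-sided permutation test over 1820 splits gave p = 0.136 (0.204 adjusted over the 3 genes). The splits exchange libraries across all regions, so differences among the other regions also enter this p for each of the 3 genes. FBN1 was at 816, 662, 617 and 596 CPM in the descending libraries, at 520, 554, 452 and 315 CPM in the ascending, at 643, 446, 462 and 701 CPM in the suprarenal and at 265, 436, 351 and 459 CPM in the infrarenal libraries. It lay above all ascending and infrarenal libraries and overlapped the suprarenal, with a difference of 0.56 and an exact permutation p of 0.0198 (0.0593 adjusted). With edgeR, ELN had a log2 difference of 0.78 (SE 0.42, adjusted p = 0.733) and FBN1 of 0.55 (SE 0.18, adjusted p = 0.604).

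NOTCH3, a Notch receptor of smooth muscle and pericytes, was at 236, 108, 94.2 and 128 CPM in the descending libraries, at 71.2, 45.1, 47.8 and 61.3 CPM in the ascending, at 256, 248, 177 and 182 CPM in the suprarenal and at 494, 429, 402 and 505 CPM in the infrarenal libraries. The descending libraries lay above all ascending and below all infrarenal ones, so NOTCH3 neither peaked nor dipped there. The difference from the other libraries was -0.40 (exact permutation p = 0.572), and the log2 difference was 1.33 from the ascending (adjusted p = 0.0726) and -1.69 from the infrarenal aorta (adjusted p = 0.00354).

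The gene lists were read by their counts and medians beside all genes tested, of which 48.7% were higher in the descending aorta at a median log2 difference of -0.01. These all-gene values are for the fit with all 16 libraries. None is given for the fit without the 3 libraries, so list counts and medians from that fit have no such baseline. None of the 645 list genes tested passed against the mean of the other regions with edgeR. There 100 had an unadjusted p under 0.05 (67 higher and 33 lower), beside 1013 of all 15926 genes tested. The lists were chosen with earlier results of these data known, so these shares were not compared. DESeq2 called 19 and limma voom 1, which was HOXA4, and their counts over all genes are given above. Higher with DESeq2 were BMP3, HOXA4, RSPO2, COL4A3, SOX9, HOXC5, UCP1 and SFRP1. Lower were KCNA5, HAND1, HOXD9, HOXD10, ACAN, COL8A1, ANGPT2, FABP3, KCNT2, ISL1 and TBX2. Of 21 elastic fibre genes, 17 were higher and 4 lower in the descending aorta, with a median of 0.20 (0.21 without the 3 libraries). The difference was largest against the infrarenal aorta (median 0.39), with medians of 0.06 against the ascending and 0.08 against the suprarenal. EMILIN2, a glycoprotein of elastic fibres, averaged 174 ± 30.5 CPM in the descending and 168 ± 51.8, 119 ± 11.4 and 75.2 ± 7.95 in the ascending, suprarenal and infrarenal libraries, and it was the list's only call against the infrarenal aorta (higher, 1.21, adjusted p = 0.00475). FBLN1, a fibulin, had a log2 difference of 0.47 and LOX, which crosslinks elastin and collagen, of 1.05, both with an adjusted p of 0.733.

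Basement membrane genes numbered 19, of which 15 were higher and 4 lower, at a median of 0.33 (0.28 without the 3 libraries). COL4A3 and COL4A4, chains of a specialised type of basement membrane collagen, behaved alike. COL4A3 was at 63.1, 84.7, 82.8 and 86.5 CPM in the descending libraries, at 90.4, 64.8, 94.4 and 114 CPM in the ascending, at 52.9, 24.4, 27.2 and 71.3 CPM in the suprarenal and at 10.6, 9.93, 8.58 and 14.4 CPM in the infrarenal libraries. Descending and ascending values overlapped and all lay above the infrarenal ones. COL4A3 differed by 1.17 from the mean of the others (SE 0.23, adjusted p = 0.109, and 0.118 without the 3 libraries) and by 2.87 from the infrarenal aorta (adjusted p = 0.000932), and COL4A4 by 0.99 (SE 0.34, adjusted p = 0.657) and 2.20 (adjusted p = 0.0219). These were the list's only calls against the infrarenal aorta, and none of the list passed against the ascending or suprarenal.

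Of 16 interstitial collagens 10 were higher and 6 lower (median 0.08, and 0.14 without the 3 libraries). COL8A1, a short-chain collagen of vessel walls, averaged 55.2 ± 10.9 CPM in the descending and 41.2 ± 25.6, 129 ± 84.5 and 603 ± 128 in the ascending, suprarenal and infrarenal libraries, and fell against the infrarenal aorta (-3.45, adjusted p = 0.00159). Its log2 difference from the mean was -1.42 (SE 0.39, adjusted p = 0.401), and that of the fibrillar collagen COL5A3 was 1.06 (SE 0.41, adjusted p = 0.733). Of 15 proteoglycan genes 9 were higher and 6 lower, and their median of 0.17 and mean of -0.12 differed in sign (median 0.12 without the 3 libraries). ACAN, the cartilage proteoglycan aggrecan, averaged 0.719 CPM in the descending aorta and 2.72, 3.66 and 19.0 CPM in the ascending, suprarenal and infrarenal, and fell against the infrarenal (-4.70, adjusted p = 0.0375). Of 12 genes of cartilage-like matrix 2 were higher and 10 lower (median -0.24), and without the 3 libraries 7 of 13 were higher. SOX9, the transcription factor of cartilage, went the other way, at 41.9, 21.9, 29.7 and 15.8 CPM in the descending libraries, 27.1, 19.0, 19.7 and 8.33 CPM in the ascending, 26.7, 4.45, 3.62 and 5.31 CPM in the suprarenal and 0.386, 0.843, 2.16 and 1.24 CPM in the infrarenal libraries. It rose against the infrarenal aorta (4.54, adjusted p = 0.00388) and differed from the mean by 2.18 (SE 0.45, adjusted p = 0.162, and 0.155 without the 3 libraries). Of 19 matrix proteases and inhibitors 13 were higher and 6 lower (median 0.20), led by the urokinase gene PLAU (0.70) and the aggrecanase ADAMTS5 (1.21), neither of which passed.

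The contractile genes of smooth muscle numbered 28, of which 12 were higher and 16 lower at a median of -0.03 (-0.15 without the 3 libraries), and none passed in any of the 3 pairs. LDB3 and DES, proteins of the contractile and intermediate filament apparatus, had log2 differences of -0.64 and -0.90 and adjusted p-values of 0.708 and 0.733. The summed CPM of the list ran from 65056 to 72740 in the descending libraries, a narrower range than the 51663 to 85193 of the ascending, the 42136 to 86228 of the suprarenal and the 61864 to 169950 of the infrarenal libraries. Each of those 3 regions held 1 of the libraries that stood apart and the descending region none, and ranges without them are not given. Of 28 ion channels of smooth muscle 15 were higher and 13 lower (median 0.02, and -0.02 without the 3 libraries; mean -0.24), and against the infrarenal aorta 5 fell and 1 rose. Beside KCNA5 and P2RX1, the T-type calcium channel CACNA1H averaged 11.2 CPM in the descending and 80.3 in the infrarenal aorta (-2.84, adjusted p = 0.0070), and the sodium-activated potassium channel KCNT2 1.24 and 28.6 CPM (-4.52, adjusted p = 0.0077). Of 24 vasoactive receptors and ligands 13 were higher and 11 lower (median 0.04, and 0.12 without the 3 libraries). The adrenergic receptors ADRB1 and ADRA1A had log2 differences of 1.68 and 1.25 and did not pass (adjusted p = 0.697 and 0.733).

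Signalling and patterning lists gave no edgeR call against the mean of the other regions either. Of 34 TGF-beta and BMP genes 23 were higher and 11 lower (median 0.20, and 0.09 without the 3 libraries), led by BMP3 and then BMP7 (1.24, adjusted p = 0.733). Of 36 WNT pathway genes 19 were higher and 17 lower (median 0.09, and 0.14 without the 3 libraries). RSPO2 differed from the mean by 2.53 (SE 0.52, adjusted p = 0.162), the secreted WNT antagonist SFRP1 by 0.92 (SE 0.22, adjusted p = 0.246) and the ligand WNT5A by 1.13 (adjusted p = 0.520). SFRP1 was at 283, 279, 150 and 177 CPM in the descending libraries, at 74.3, 117, 68.3 and 89.6 CPM in the ascending, at 221, 170, 118 and 297 CPM in the suprarenal and at 72.4, 88.3, 106 and 101 CPM in the infrarenal libraries. It was higher in all descending than in all ascending and infrarenal libraries and overlapped the suprarenal. Of 24 Notch pathway genes 9 were higher and 15 lower at a median of -0.30, which was 0.03 without the 3 libraries. Against the infrarenal aorta NOTCH3, its ligand JAG1 (-1.33, adjusted p = 0.00468) and the target HES4 (-2.70, adjusted p = 0.00937) fell.

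Of 26 heart field and neural crest factors 12 were higher and 14 lower (median -0.02, and 0.01 without the 3 libraries), and HAND1 was the only call against the ascending aorta. ISL1, a marker of the second heart field, averaged 0.0567 CPM in the descending aorta and 2.60, 0.830 and 0.311 CPM in the ascending, suprarenal and infrarenal, with a log2 difference of -5.30 from the ascending (adjusted p = 0.0972) on 4 descending counts. Of 11 somite and paraxial mesoderm factors 6 were higher and 5 lower (median 0.08), and 8 of 10 were higher without the 3 libraries. OSR1, an odd-skipped transcription factor of mesoderm, was at 730, 728, 695 and 758 CPM in the descending libraries, at 1225, 981, 616 and 439 CPM in the ascending, at 724, 387, 249 and 504 CPM in the suprarenal and at 247, 77.9, 93.4 and 139 CPM in the infrarenal libraries. The descending libraries were close together and above all infrarenal ones (2.39, adjusted p = 0.00559). PAX9, a factor of the sclerotome, differed from the mean by 1.10 (adjusted p = 0.708).

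**Figure D4:**
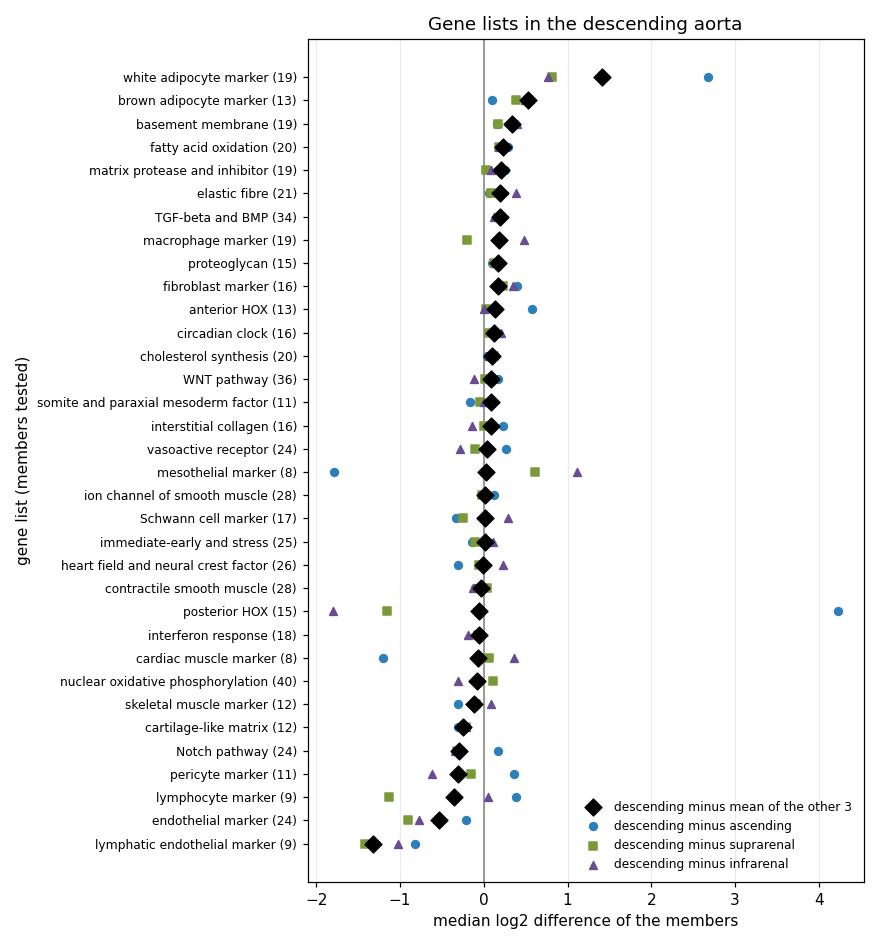
Median log2 difference (x axis) of the tested members of each list with 8 or more of them (y axis, number tested in brackets), for the descending aorta minus the mean of the other 3 regions (diamonds) and minus each region (circles, squares, triangles). White adipocyte markers have the highest median (1.41) and lymphatic endothelial markers the lowest (-1.33), and the posterior HOX point against the ascending aorta stands at 4.23. No member passed the test behind the diamonds.

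White adipocyte markers had the highest list median. All 19 tested were higher in the descending aorta, at a median log2 difference of 1.41 (1.91 without the 3 libraries, again with 19 higher), and none passed. Without descending library 1 the median was 0.40. In bulk tissue, fewer cells of a type and less RNA per cell cannot be told apart. The list's score was 1.10 ± 1.49 in the descending libraries and -1.41 ± 0.86, 0.24 ± 1.69 and 0.07 ± 1.61 in the ascending, suprarenal and infrarenal libraries (SD, n = 4 each), so the spread within the descending region was as large as its distance from the suprarenal and infrarenal ones. FASN, the fatty acid synthase, was at 848, 386, 188 and 79.4 CPM in the descending libraries, at 75.2, 70.8, 74.9 and 68.1 CPM in the ascending, at 114, 59.7, 292 and 155 CPM in the suprarenal and at 62.2, 92.6, 347 and 80.9 CPM in the infrarenal libraries. Descending library 1 was the highest of all and descending library 4 close to the ascending level. FASN differed by 1.67 (SE 0.49, adjusted p = 0.464), DGAT2 and GPD1 of triglyceride synthesis by 2.68 and 2.49, and the adipocyte transcription factor CEBPA by 1.41, none of them past the threshold.

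PLIN1, the coat protein of lipid droplets, was at 423, 86.4, 115 and 22.9 CPM in the descending libraries, at 15, 9.75, 7.51 and 10.2 CPM in the ascending, at 59.6, 9.66, 160 and 54.0 CPM in the suprarenal and at 3.93, 16.1, 198 and 58.1 CPM in the infrarenal libraries. ADIPOQ, the fat hormone adiponectin, was at 356, 117, 194 and 14.1 CPM in the descending libraries, at 2.69, 1.23, 2.54 and 10.6 CPM in the ascending, at 37.1, 1.77, 345 and 63.3 CPM in the suprarenal and at 1.39, 11.2, 404 and 55.8 CPM in the infrarenal libraries. In both genes, as in FASN, descending library 1, suprarenal library 3 and infrarenal library 3 were the highest of their regions, and every descending library was above every ascending one.

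UCP1, the uncoupling protein that defines brown fat, was at 43.3, 0.120, 41.0 and 0.333 CPM in the descending libraries, at 0 in all 4 ascending libraries, at 2.04, 0, 0.254 and 12.3 CPM in the suprarenal and at 0.154, 0, 0 and 0 CPM in the infrarenal libraries. Descending libraries 1 and 3 held 709 and 676 of its 1393 descending counts, and libraries 2 and 4 held 2 and 6. Summed over libraries and scaled by depth, UCP1 was at least 446-fold higher than in the ascending aorta (against a floor of 3 counts over the group), 5.86-fold (95% counting interval 5.11 to 6.73) the suprarenal and 687-fold (190 to 5680, on 2 counts) the infrarenal level. These intervals cover counting error only, and the spread between libraries was far wider: edgeR gave an adjusted p of 0.162. DESeq2 gave one of 0.0354. Of 13 brown adipocyte markers 10 were higher and 3 lower (median 0.53). CIDEA, a lipid droplet protein of brown fat, differed by 1.99 and DIO2, which activates thyroid hormone, by 1.35, while FABP3, a fatty acid binding protein, differed by -1.65 and fell against the infrarenal aorta (-3.01, adjusted p = 0.00935).

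**Figure D5:**
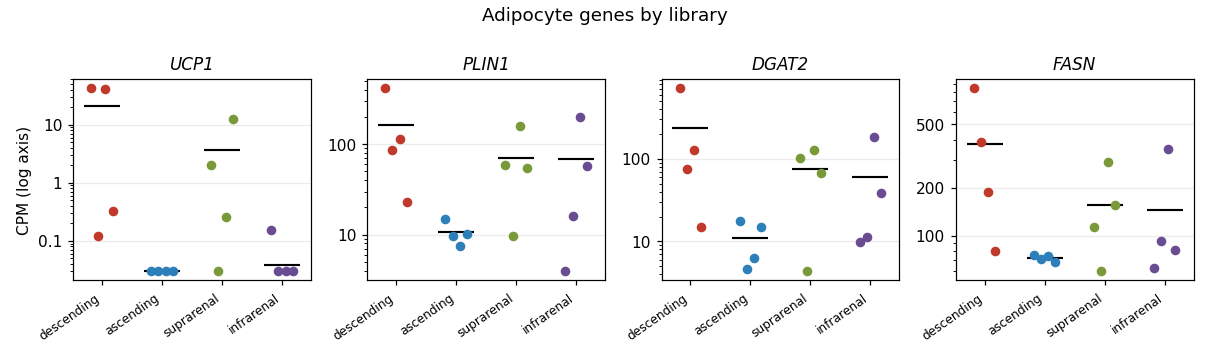
CPM on a log axis in each library (points) with the region mean (bar) for UCP1, PLIN1, DGAT2 and FASN. Values of 0 are drawn at 0.03. UCP1 is at 43.3 and 41.0 CPM in descending libraries 1 and 3 and at 0.120 and 0.333 CPM in descending libraries 2 and 4, and the ascending libraries are the lowest region for PLIN1, DGAT2 and FASN by their means.

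Metabolic lists that bear on fat gave smaller medians. Of 20 fatty acid oxidation genes 14 were higher and 6 lower (median 0.23), and 17 were higher without the 3 libraries. ACAA2, the last enzyme of mitochondrial beta oxidation, differed by 0.67 (SE 0.18, adjusted p = 0.404), ETFDH, which passes its electrons to the respiratory chain, by 0.69 (adjusted p = 0.472) and ACSL1, which activates fatty acids, by 1.06 (adjusted p = 0.712). Of 40 nuclear genes of oxidative phosphorylation 11 were higher and 29 lower (median -0.08), and without the 3 libraries 28 were higher and 12 lower. NDUFS1, a subunit of respiratory complex I, differed by 0.58 (adjusted p = 0.708). Of 20 cholesterol synthesis genes 13 were higher and 7 lower than the mean of the other regions (median 0.09), and none passed against it.

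Endothelial markers were lower in the descending aorta for all 24 genes tested, at a median of -0.53, and none passed. Without the 3 libraries 13 were higher and 11 lower and the median was 0.00, so the direction rested on those libraries. ESAM, an adhesion molecule of endothelial junctions, averaged 66.0 CPM in the descending aorta and 93.7, 154 and 324 CPM in the ascending, suprarenal and infrarenal, and fell against the infrarenal (-2.30, adjusted p = 0.0237), and the gap junction gene GJA5 differed from the mean by -1.29 (adjusted p = 0.708). Lymphatic endothelial markers had 3 higher and 6 lower of 9 (median -1.33, and -0.32 without the 3 libraries), with the vessel growth factor ANGPT2 at -1.77 from the mean and -3.92 from the infrarenal aorta (adjusted p = 0.00468). Lymphocyte markers had 2 higher and 7 lower of 9 (median -0.36), but 8 of 8 were higher without the 3 libraries. Of 8 mesothelial markers 4 were higher and 4 lower (median 0.03), and 7 were higher without them, with the keratin KRT8 rising against the infrarenal aorta (2.59, adjusted p = 0.0088).

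Of 16 fibroblast markers 14 were higher and 2 lower (median 0.17), and all 16 were higher at a median of 0.67 without the 3 libraries. IGF1, the insulin-like growth factor, differed by 1.00 (SE 0.28, adjusted p = 0.405) and the chemokine CXCL14 by 1.42 (adjusted p = 0.464). Mast cell markers had 5 higher and 1 lower of 6 (median 0.58, and 0.84 without the 3 libraries), with the protease genes CPA3 at 1.99 and CMA1 at 1.84, neither past the threshold. Their median was 1.49 against the ascending, 0.0003 against the suprarenal and 0.87 against the infrarenal aorta. CPA3 was at 28, 11.3, 2.18 and 1.5 CPM in the descending libraries, against 0.363 to 3.26 in the ascending, 6.07 to 11.9 in the suprarenal and 0.721 to 2.55 in the infrarenal libraries. Macrophage markers had 11 higher and 8 lower of 19 (median 0.18, and 0.41 without the 3 libraries), led by F13A1 (0.88) and CD68 (0.70). The macrophage median was 0.18 against the ascending, -0.20 against the suprarenal and 0.48 against the infrarenal aorta. Pericyte markers had 4 higher and 7 lower of 11 (median -0.31, and -0.12 without the 3 libraries), with MCAM at -0.45 and RGS5 at 0.71.

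The remaining lists had medians between -0.76 and 0.12 and no call against the mean of the other regions. Schwann cell markers had 9 higher and 8 lower of 17, sympathetic neuron markers 1 and 3 of 4 (median -0.76, and -0.33 without the 3 libraries), skeletal muscle markers 6 and 6 of 12, cardiac muscle markers 3 and 5 of 8 (median -0.06, and -0.23 without the 3 libraries) and thymus markers 0 and 2 of 2, while 3 of 3 were higher without the 3 libraries. The sarcomere genes ACTN3 and CASQ1 rose against the infrarenal aorta (1.35, adjusted p = 0.0343, and 2.21, adjusted p = 0.0387), and TNNT2, cardiac troponin T, averaged 2.04 CPM in the descending aorta and 13, 3.63 and 2.61 CPM in the ascending, suprarenal and infrarenal. Immediate-early and stress genes had 13 higher and 12 lower of 25 (median 0.01, and 0.09 without the 3 libraries), circadian clock genes 11 and 5 of 16 (median 0.12) and interferon response genes 7 and 11 of 18 (median -0.06), while without the 3 libraries 12 of the interferon genes were higher and 6 lower (median 0.06). No red blood cell marker was tested. The part of fat, lymphocytes, mesothelium or other tissue carried with the vessel wall in any of the gene differences was not tested.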

How the data were processed

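Per the labels' protocols, aortic RNA was purified with an RNeasy fibrous tissue kit and 1 ug of it went into each NEBNext Ultra library. Per the submitters' processing notes, reads were handled with fastp, HISAT2 2.0.5 and featureCounts 1.5.0-p3, whose roles are not described there, and neither they nor the labels name a genome build. The deposited values are raw counts per gene, made by the authors, in 32846 rows of which 32822 are gene IDs and 24 mitochondrial RNA names. Symbols came from a RefSeq gene table, which matched 24609 rows (74.9%) holding 97.2% of the counts.

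Groups were taken from the sample titles. Genes passing the edgeR 4.0.16 filter (minimum count 10, minimum total 15) numbered 15926 and held 99.9% of the counts. A quasi-likelihood model with a mean per region and TMM scaling was fitted to all 16 libraries in R 4.3.3, with 12 residual degrees of freedom, a common dispersion of 0.146 and Benjamini-Hochberg adjustment over all genes tested. The descending aorta was tested against the mean of the 3 other region means and against each region. ELN, FBN1 and NOTCH3 also had an exact two-sided permutation test on log2 CPM over 1820 splits, whose smallest possible p is 0.000549. An error given as SE is that of the log2 difference. List scores are means over the list of log2 CPM centred on each gene, with a prior count of 2. No 2 libraries of the same region agreed within sampling noise (lowest chi-square per degree of freedom 27.5), and the scripts were tested on simulated data.

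The members and the 38 gene lists were chosen with earlier results of these data known. Of 784 genes listed, 24 had no row. Named genes were ELN, FBN1 and NOTCH3, the genes called against the mean of the others at a mean log2 CPM of 1 or more (none), the genes that peaked or dipped against each region (none), up to 4 genes of smallest p per list, and in each pair the 3 largest differences each way among called genes without overlap at that level. Other genes, KCNJ15 and SNX31 included, were named after their values were seen. Alternatives were other filters and scaling, DESeq2 1.42.0, limma 3.58.1 voom, a minimum log2 difference of 1, a replicate block, each library left out, and the 3 libraries that stood apart left out together. With 4 libraries per region and 15953945 to 17750133 counts in the descending ones, precision was set by the spread between libraries for all but low genes. Intervals on counts cover counting error only.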

Additional observations from a re-analysis of the deposited data

Results flagged for a closer look

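A library was marked where its gap to the nearest of the other 3 in its region exceeded Dixon's 95% critical share of the region's range. Of 532 groups examined 35 were marked, and chance marks about 1 in 20. In the descending aorta these were COL4A3 in library 1, at 63.1 CPM against 82.8 to 86.5 in the others, COL4A4 in library 3, at 37.3 against 70.9 to 72.9, FBLN1 in library 1, at 796 against 485 to 522, SEMA3C in library 3, at 354 against 248 to 260, and TENM3 in library 3, at 11.7 against 20.5 to 22.3. The pericyte marker score of descending library 1 was 0.517, against -0.0979 to -0.0137 in the others.

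Ascending library 4 was marked for GJA5 (58.5 CPM), HOXA9 (0.362 CPM), NDUFS1 (13.4 CPM), RBFOX1 (14.97 CPM), SEMA3C (87.6 CPM) and TENM3 (7.36 CPM), and for its mesothelial (3.48), ion channel (-0.462) and fatty acid oxidation (-0.0007) scores. Ascending library 3 was marked for ART4, at 5.21 CPM against 10.6 to 11.8 in the others, and for a mast cell marker score of -0.923.

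Suprarenal library 3 was marked for PTP4A1 (33.6 CPM) and for its lymphocyte (2.34) and Schwann cell (1.28) marker scores, and suprarenal library 4 for IGF1, at 123 CPM against 51.5 to 58.4 in the others.

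Infrarenal library 1 was marked for DIRAS2 (0 CPM), EYA2 (1.85 CPM), HOXA7 (92.0 CPM), MYL9 (38491 CPM) and NDUFS1 (16.7 CPM), and for its ribosomal protein (1.38), TGF-beta and BMP (-0.533), pericyte (0.018) and macrophage (0.3295) scores. Infrarenal library 3 was marked for its fatty acid oxidation (0.244) and interferon response (-0.384) scores, and infrarenal library 4 for HOXA10 (24.8 CPM), HOXD9 (16.9 CPM) and SLIT3 (456 CPM).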

How the results depend on the processing

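Against the mean of the other regions the count of 2 genes became 6 with every gene of at least 1 count, 87 with DESeq2, 8 with limma voom and 0 with a minimum log2 difference of 1, and ran from 0 to 12 with a library left out. It was 0 without descending 2 or 3, ascending 1 or 2, suprarenal 2 or 4, or infrarenal 1, 2 or 4, 8 without ascending 4 and 12 without suprarenal 1. Against the ascending aorta the count of 18 became 177 with DESeq2, 9 with voom, 10 with the minimum difference and 30 with the 8 libraries of those regions alone, and ran from 7 to 34 with a library left out. Against the infrarenal aorta the count of 263 became 624 with DESeq2 and 73 with the minimum difference, and ran from 132 to 326. Without the 3 libraries that stood apart, a setting chosen with earlier results known, these counts were 12, 141 and 653. The cause of these shifts was not tested.

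Same-numbered libraries did not deviate together in every pair: r ran from -0.173 to 0.575 over 24 pairs, 5 of them under 0.1. All 5 involved infrarenal 1, ascending 4 or suprarenal 3, and the other pairs had an r of 0.2155 or more. Of 16 libraries 15 correlated best with their own number, a hint from the data and not the design. A replicate block gave 13 genes against the mean, all higher and among them KCNJ15, SNX31, BMP3, SHISA9, ZNF556, COL4A3, HOXC5, AK4, DIRAS2 and RBFOX1 (adjusted p 0.0328 to 0.0444), 62 against the ascending and 432 against the infrarenal aorta. The block without the 3 libraries gave 151, 775 and 1598, 5 genes against the suprarenal aorta, and 1 gene above every region, EYA2 (largest adjusted p 0.0165).

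List medians moved as follows, each over the members tested with all libraries, so that they can differ from medians over the members tested without the 3. Without the 3 libraries they were 0.0156 for cartilage-like matrix, 0.28 for anterior HOX, 0.507 for somite factors, 0.0339 for the Notch pathway, 0.0479 for oxidative phosphorylation, 0.0035 for endothelial, -0.319 for lymphatic, 0.671 for fibroblast, 0.433 for lymphocyte, -0.335 for sympathetic, 0.988 for mesothelial and 0.198 for thymus markers. With the block they were -0.222 for endothelial, -0.599 for lymphatic, 0.0398 for lymphocyte and -0.414 for sympathetic markers, and with voom -0.179, -0.575, 0.169 and -0.384 in that order, and 0.0967 for ion channels. With a CPM of at least 1 in 4 libraries they were 0.418 for somite factors and -0.387 for skeletal muscle markers. With a library left out the ranges were -0.333 to -0.0479 for cartilage-like matrix, -0.0444 to 0.0896 for ion channels, 0.0815 to 0.212 for anterior HOX, -0.175 to 0.393 for somite factors, -0.486 to -0.0981 for the Notch pathway, -0.132 to 0.0541 for oxidative phosphorylation, -0.652 to -0.217 for endothelial, -1.45 to -0.540 for lymphatic, 0.118 to 0.567 for fibroblast, -0.491 to 0.203 for lymphocyte, -0.872 to -0.521 for sympathetic, -1.03 to 0.816 for mesothelial, -0.292 to 0.03 for skeletal muscle and -0.505 to -0.138 for thymus markers. FBN1 had a permutation p of 0.0297 (adjusted, exact) on CPM in place of log2 CPM, and its adjusted p was 0.0923 to 0.204 with a descending library left out.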
